A study of Mus musculus with 12 samples.

Results

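Lipopolysaccharide (LPS) was given to 2 kinds of mouse dendritic cell, and the comparison here asks how far the response of tolerogenic cells (TolDC) differed from that of control cells (BMDC). For each gene the quantity is the change with LPS in TolDC minus the change with LPS in BMDC, on the log2 scale, so that a positive value means a more positive response in TolDC. All genes that passed a filter on low counts were members, 13141 of the 31054 gene identifiers in the tables. Each was then sorted by its calls: blunted where TolDC responded less than BMDC, amplified where they responded more, and reversed where both responded and in opposite directions.

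The 4 groups were TolDC + LPS, TolDC, BMDC + LPS and BMDC, with 3 RNA-seq libraries each. All were live cells enriched for CD11c, grown from bone marrow of wild-type C57BL6 mice and taken on day 7. TolDC had been made with vitamin D3 and IL-10, with LPS added in TolDC + LPS. BMDC + LPS received LPS alone, and BMDC received neither. Doses and the length of the LPS exposure are not stated in the labels, nor is it stated whether the libraries of a group came from separate mice or cultures, so p-values measure the spread between these libraries, which may be technical.

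LPS, a component of the outer membrane of Gram-negative bacteria, is recognised by TLR4. One arm of its signalling acts through NF-kB and MAP kinases and raises inflammatory cytokines and co-stimulatory molecules; another acts through IRF factors and type I interferon and raises interferon-stimulated genes. Vitamin D3 acts through the nuclear receptor VDR, and IL-10 through STAT3. Dendritic cells grown with them are known for low co-stimulation and for dampening T cell responses.

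The libraries held 21844405 to 41764975 assigned reads, so that 3 counts in a library correspond to 0.0718 to 0.137 CPM, the count scaled to a common library total. Counts of libraries 2 and 3 of a group differed by a chi-square per degree of freedom of 1.35 to 2.3. Counting noise alone gives values near 1, and pairs with library 1 gave 5.16 to 11.56. Libraries numbered 1 thus stood apart from those numbered 2 and 3 in each of the 4 groups. Summed over 12 neutrophil markers, none of which was at 0 in any group, they held 248 CPM in TolDC + LPS library 1, against 518 and 611 in the other two of that group. The corresponding values were 337 CPM in TolDC library 1, with 855 and 875 in the others, 396 CPM in BMDC + LPS library 1, with 1545 and 1713, and 779 CPM in BMDC library 1, with 2683 and 2757. Markers of mast cells, basophils and eosinophils were likewise lowest in library 1 of each group, over a range of 55.4 to 504 CPM. Summed levels were at most 39.7 CPM for T and NK cells, 4.17 CPM for B cells, 18.2 CPM for erythroid cells and 6.45 CPM for stromal cells. The 10 general dendritic cell markers summed to 9948 to 11500 CPM in TolDC + LPS and 8425 to 8811 CPM in TolDC, against 10221 to 11278 CPM in BMDC + LPS and 7350 to 7743 CPM in BMDC. None of them was at 0 in any group, and Itgax, the gene of CD11c, was well expressed throughout.

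Promoters are shown for the genes with the largest difference among those with a blunted rise (Ptgs2) and those with a reversed response (Mmp13 and Igsf9), since their values open the results below. Each runs from 250 bases before to 50 after the RefSeq start, on GRCm38.p6, plus strand: chr1:150099781-150100080 for Ptgs2, chr9:7272264-7272563 for Mmp13 and chr1:172481963-172482262 for Igsf9. Capitals mark matches on either strand to 4 searched motifs.
Ptgs2: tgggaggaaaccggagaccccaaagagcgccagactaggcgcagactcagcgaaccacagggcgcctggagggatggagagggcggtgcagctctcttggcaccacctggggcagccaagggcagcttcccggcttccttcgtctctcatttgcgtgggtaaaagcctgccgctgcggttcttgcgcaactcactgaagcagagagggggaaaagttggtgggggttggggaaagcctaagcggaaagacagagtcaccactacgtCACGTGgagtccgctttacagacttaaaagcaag
Mmp13: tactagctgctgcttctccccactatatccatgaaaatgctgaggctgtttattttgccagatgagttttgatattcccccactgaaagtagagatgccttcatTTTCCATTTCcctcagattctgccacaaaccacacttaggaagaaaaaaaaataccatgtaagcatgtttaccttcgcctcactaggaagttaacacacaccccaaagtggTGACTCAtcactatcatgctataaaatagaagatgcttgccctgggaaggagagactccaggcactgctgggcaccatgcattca
Igsf9: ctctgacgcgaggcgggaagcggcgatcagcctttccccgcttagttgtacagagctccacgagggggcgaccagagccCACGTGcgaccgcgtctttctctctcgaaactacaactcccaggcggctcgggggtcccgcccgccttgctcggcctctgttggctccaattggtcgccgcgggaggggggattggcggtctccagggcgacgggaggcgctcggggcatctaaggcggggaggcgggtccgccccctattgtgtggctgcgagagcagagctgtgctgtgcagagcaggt
The motifs were an ISRE core (GAAA, 2 free bases and GAAA), AP-1 (TGANTCA), NF-kB (GGG, 2 free bases and TTTCC) and an E-box (CACGTG), and no matches overlapped between motifs in these 3 promoters. In Mmp13 the capitals at -146 are the ISRE core, on the minus strand, and those at -35 are AP-1. The capitals at 17 in Ptgs2 and at -171 in Igsf9 are E-boxes. Among 10205 promoters of tested genes, 3.37% held the ISRE core, 5.45% AP-1, 1.76% NF-kB and 10.2% the E-box. Among genes that differed by at least 2-fold, AP-1 was held by 16.1% of 62 promoters of reversed rises in TolDC, 10.8% of 83 reversed falls, 13.5% of 126 amplified rises, 3.18% of 220 amplified falls, 8.61% of 151 blunted rises and 10% of 160 blunted falls. In the same order the ISRE core was held by 6.45%, 9.64%, 3.17%, 5.91%, 7.28% and 2.5% of them. For the E-box the shares were 6.45%, 3.61%, 4.76%, 6.82%, 5.3% and 11.9%. For NF-kB they were 1.61%, 0%, 2.38%, 1.36%, 2.65% and 2.5%. These shares are descriptions, with no test.

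Over all genes the responses were similar in direction and differed often in size. LPS changed 9370 genes in TolDC (71.3% of those tested) and 9614 in BMDC (73.2%), at an adjusted p below 0.05 in edgeR's quasi-likelihood test. Of the 7664 genes changed in both, 7032 (91.8%) went the same way and 632 (8.25%) went opposite ways. The difference between the responses itself was called for 5834 genes, 44.4% of those tested. The response was more positive in TolDC for 2683 of them (20.4%) and more negative for 3151 (24.0%), and 1089 (8.29%) differed by at least 2-fold. The median difference over all genes was -0.0095. Without the 4 libraries numbered 1, 6220 genes were called, from libraries 2 and 3, which were close to each other. With libraries 2 and 3 of each group summed, 4418 were called.

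The classes were of unequal size. A blunted response was found for 2926 genes (22.3% of those tested), of which 1554 (11.8%) rose and 1372 (10.4%) fell in BMDC. An amplified response was found for 2229 genes (17.0%), of which 1015 (7.72%) rose and 1214 (9.24%) fell in TolDC. The 632 reversed genes (4.81%) comprised 269 (2.05%) that rose and 363 (2.76%) that fell in TolDC. Among blunted genes 1142 had no called response in TolDC, and among amplified genes 939 had none in BMDC. The median log2 change of blunted rises was 0.26 in TolDC and 0.76 in BMDC, and that of amplified rises was 0.73 in TolDC and 0.21 in BMDC. Without the libraries numbered 1 the counts were 3066 blunted, 2395 amplified and 705 reversed genes. With libraries 2 and 3 of each group summed they were 2273, 1665 and 438.

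**Figure D1:**
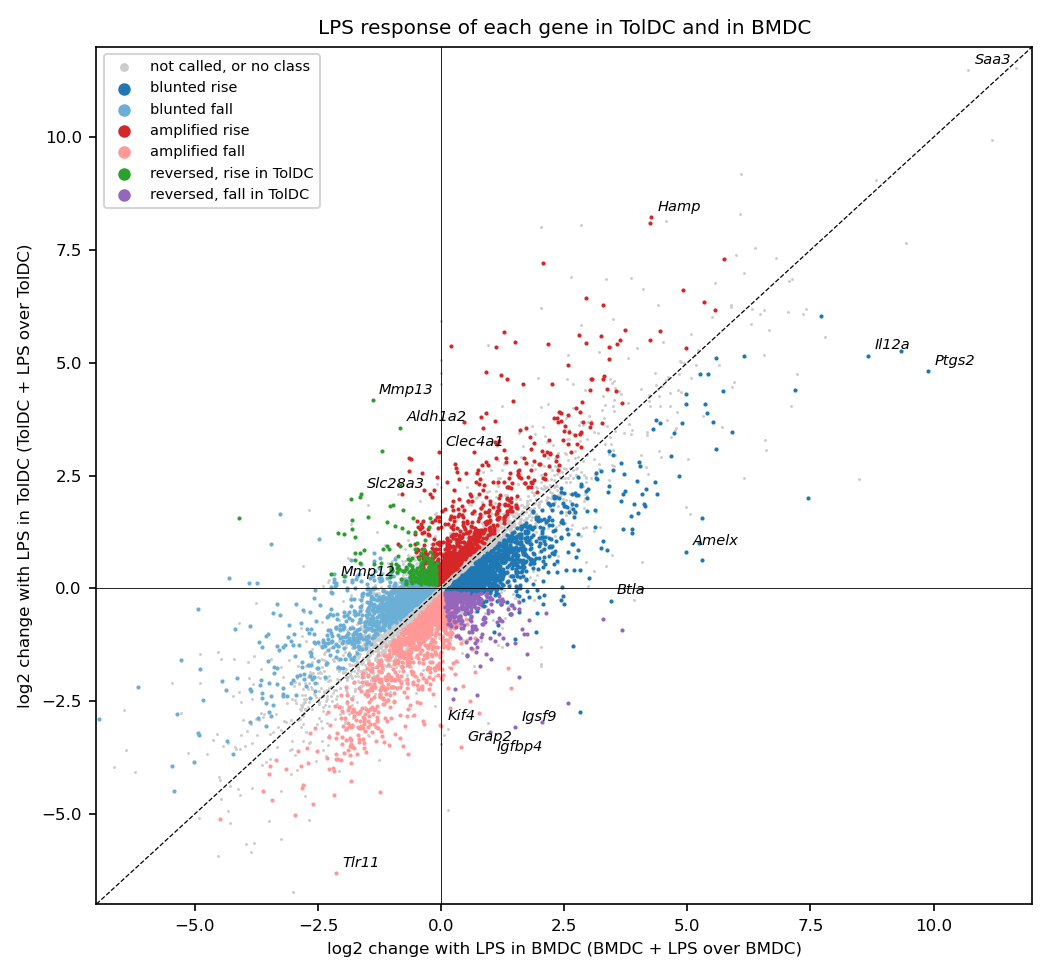
Each point is 1 of 13141 genes, with its log2 change with LPS in BMDC on the horizontal axis and in TolDC on the vertical axis, coloured by class. Genes on the dashed line responded alike; blunted genes lie mostly between it and the horizontal axis, amplified genes mostly beyond it, and reversed genes in the upper left and lower right.

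The spread of responses was alike in the 2 cell types. The SD of the log2 change across genes was 1.17 in TolDC and 1.18 in BMDC. Among the 1472 genes that rose by at least 2-fold in BMDC, the median change was 1.31 in TolDC and 1.63 in BMDC. Among the 1267 that rose by at least 2-fold in TolDC, it was 1.73 in TolDC and 1.55 in BMDC. The side on which genes are selected is therefore the side with the larger median in both cases. A class also depends on the level before LPS, because a log2 change from a higher start is smaller for the same end level. In 145 of the 2926 blunted and 160 of the 2229 amplified genes, the difference in CPM had the opposite sign to that in log2. For reversed genes both scales share a sign by definition, because a rise is set against a fall.

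The largest differences among genes that rose in TolDC and fell in BMDC were those of Mmp13 and Aldh1a2. Mmp13, a collagenase (ENSMUSG00000050578, chr9:7272514-7283331, plus strand, protein-coding), had 210.3, 191 and 192 CPM in TolDC + LPS and 11.1, 10.9 and 10.99 CPM in TolDC, against 12.03, 11.1 and 9.75 CPM in BMDC + LPS and 27.8, 29.7 and 29.1 CPM in BMDC. TolDC + LPS stood apart from the other 3 groups, and TolDC and BMDC + LPS overlapped. Mmp13 rose by 4.17 in TolDC and fell by 1.39 in BMDC on the log2 scale, a difference of 5.56 ± 0.089 (SE; edgeR adjusted p = 2.16e-18). Aldh1a2, which makes retinoic acid from retinaldehyde (ENSMUSG00000013584, chr9:71215789-71296243, plus strand, protein-coding), had 23.7, 23.3 and 23.04 CPM in TolDC + LPS and 1.63, 2.41 and 1.903 CPM in TolDC, against 145, 137 and 135 CPM in BMDC + LPS and 257, 243 and 243 CPM in BMDC. Its groups did not overlap, and both TolDC groups lay below both BMDC groups although the responses crossed. The difference was 4.39 ± 0.096 (adjusted p = 1.94e-16, edgeR), from 3.56 in TolDC and -0.83 in BMDC.

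Slc28a3, a nucleoside transporter, had 11.4, 18.4 and 16.6 CPM in TolDC + LPS and 3.65, 3.14 and 4.09 CPM in TolDC, against 22.4, 25.1 and 23.9 CPM in BMDC + LPS and 78.8, 71.7 and 70.8 CPM in BMDC. LPS brought its levels nearer to each other, and the difference was 3.72 ± 0.23 (edgeR adjusted p = 4.84e-07). Ch25h, which makes an oxysterol from cholesterol, had 27.7, 25.8 and 26.8 CPM in TolDC + LPS and 9.796, 10.2 and 9.16 CPM in TolDC, against 4.01, 3.64 and 3.42 CPM in BMDC + LPS and 8.12, 8.17 and 7.36 CPM in BMDC. TolDC + LPS was the highest and BMDC + LPS the lowest group, with a difference of 2.55 ± 0.12 (edgeR adjusted p = 6.96e-12). Mmp8, another collagenase, had 568, 573 and 578 CPM in TolDC + LPS and 454, 463 and 463 CPM in TolDC, against 9.99, 11.8 and 12.5 CPM in BMDC + LPS and 45.1, 56.7 and 58.2 CPM in BMDC. The rise in TolDC was small (0.32) beside the fall in BMDC (-2.23), and both TolDC groups were well above both BMDC groups. Adgrl2, an adhesion receptor of the latrophilin family, differed by 2.87 ± 0.22 (edgeR adjusted p = 6.6e-09), with a mean of 8.33 ± 1.78 CPM in TolDC + LPS and 2.33 ± 0.347 CPM in TolDC, against 2.61 ± 0.0412 CPM in BMDC + LPS and 5.34 ± 0.228 CPM in BMDC (SD, n = 3 each).

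The largest differences among genes that fell in TolDC and rose in BMDC were those of Igsf9 and Igfbp4. Igsf9, a member of the immunoglobulin superfamily (ENSMUSG00000037995, chr1:172481788-172498878, plus strand, protein-coding), had 8.36, 8.14 and 8.03 CPM in TolDC + LPS and 73.3, 67.1 and 67.5 CPM in TolDC, against 91.1, 85.9 and 85.5 CPM in BMDC + LPS and 33.6, 29.4 and 29.1 CPM in BMDC. Its level in TolDC + LPS was the lowest of the 4 groups and that in BMDC + LPS the highest, with no overlap between groups. It fell by 3.08 in TolDC and rose by 1.51 in BMDC, a difference of -4.59 ± 0.083 (edgeR adjusted p = 9.56e-18). Igfbp4, a binding protein of insulin-like growth factors (ENSMUSG00000017493, chr11:99041244-99054392, plus strand, protein-coding), had 5.35, 5.99 and 5.896 CPM in TolDC + LPS and 51.8, 52.1 and 52.96 CPM in TolDC, against 11.1, 15.8 and 14.9 CPM in BMDC + LPS and 5.33, 7.36 and 8.18 CPM in BMDC. TolDC alone stood high, and TolDC + LPS and BMDC overlapped, with a difference of -4.18 ± 0.20 (edgeR adjusted p = 7.83e-09). Cx3cl1, the chemokine fractalkine, had 2.02, 2.59 and 2.55 CPM in TolDC + LPS and 6.27, 4.98 and 5.43 CPM in TolDC, against 38.2, 39.1 and 35.9 CPM in BMDC + LPS and 12.1, 13.7 and 14.4 CPM in BMDC. LPS widened the gap between the cell types, and the difference was -2.71 ± 0.14 (edgeR adjusted p = 6.52e-11).

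Epha2, an ephrin receptor, had 15.7, 13.7 and 14.4 CPM in TolDC + LPS and 82.6, 75.8 and 80.4 CPM in TolDC, against 11.7, 12.4 and 12.1 CPM in BMDC + LPS and 10.7, 9.37 and 10.4 CPM in BMDC. Nearly all of its difference of -2.70 ± 0.093 came from TolDC, since the change in BMDC was 0.25. St3gal5, which makes the ganglioside GM3, had 18.4, 15.8 and 16.03 CPM in TolDC + LPS and 25.2, 23.6 and 24.5 CPM in TolDC, against 16.8, 14.5 and 17.7 CPM in BMDC + LPS and 3.42, 4.08 and 3.57 CPM in BMDC. The stimulated groups overlapped and the unstimulated groups did not, with a difference of -2.69 ± 0.13 (edgeR adjusted p = 1.19e-11). Ly6a, a surface protein also called Sca-1, had 18.8, 24.9 and 25 CPM in TolDC + LPS and 41.2, 47.96 and 49.4 CPM in TolDC, against 8.06, 15.3 and 14.3 CPM in BMDC + LPS and 1.55, 4.89 and 4.74 CPM in BMDC. It was lowest in library 1 of every group, and its difference was -2.75 ± 0.48 (edgeR adjusted p = 0.0017; 0.0555 with libraries 2 and 3 of each group summed). Near-identical Ly6 genes make its counts uncertain. Irf8, a transcription factor of dendritic cell development, had 54.7, 51.95 and 49.7 CPM in TolDC + LPS and 87.7, 81.4 and 83.4 CPM in TolDC, against 174, 166 and 162 CPM in BMDC + LPS and 51.3, 45.1 and 49.7 CPM in BMDC. The TolDC response was a fall of 0.69 and the BMDC response a rise of 1.78, a difference of -2.47 ± 0.072 (edgeR adjusted p = 1.88e-14).

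**Figure D2:**
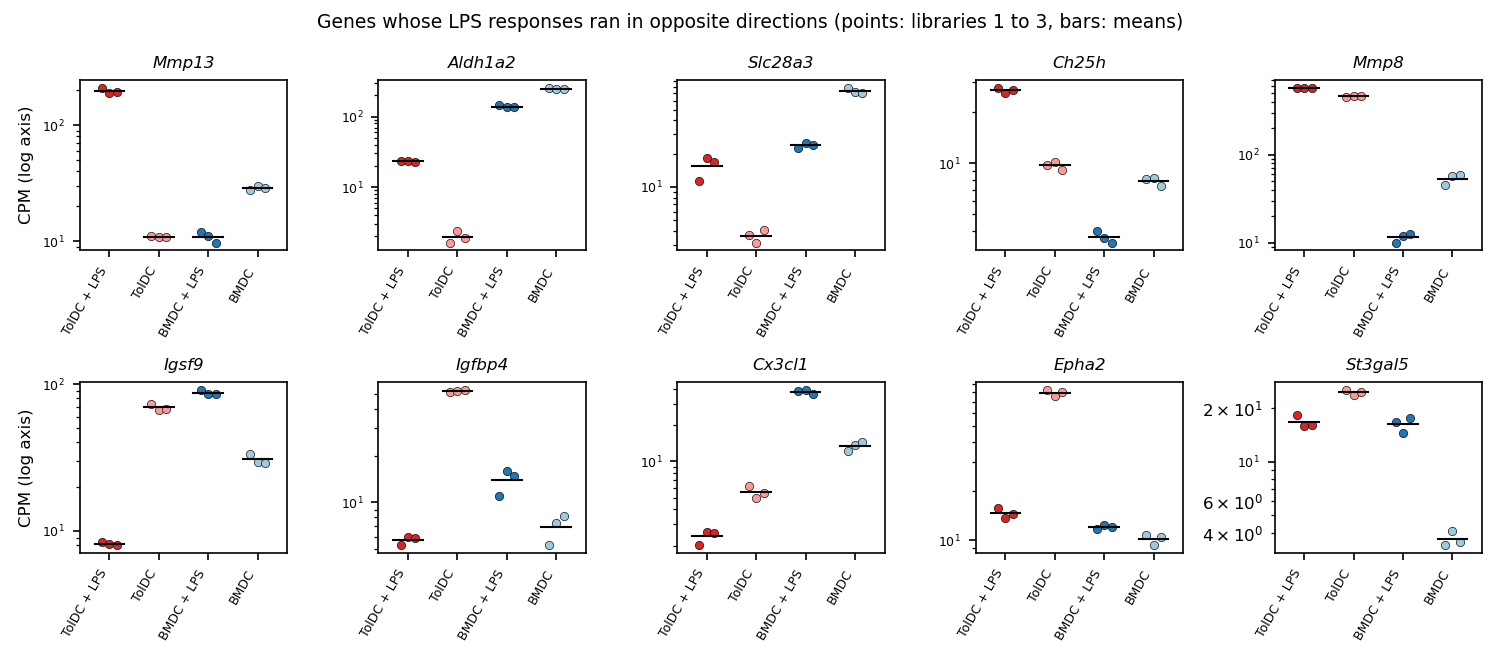
Level in CPM (log axis) of 10 genes with reversed responses in each of the 12 libraries, with group means as bars. The upper row holds genes that rose in TolDC and fell in BMDC, led by Mmp13, and the lower row genes that did the opposite, led by Igsf9.

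Blunted rises included Ptgs2, Nos2, Il1b and Tnf, which started from a higher level in unstimulated TolDC than in BMDC. Ptgs2, which encodes the inducible cyclooxygenase (ENSMUSG00000032487, chr1:150100031-150108227, plus strand, protein-coding), had 1206, 998 and 1122 CPM in TolDC + LPS and 41.96, 37.5 and 38.6 CPM in TolDC, against 652, 560.4 and 562 CPM in BMDC + LPS and 0.529, 0.551 and 0.818 CPM in BMDC. TolDC + LPS was the highest of the 4 groups, and unstimulated TolDC lay far above BMDC. The log2 rise was 4.82 in TolDC and 9.89 in BMDC, a difference of -5.07 ± 0.19 (edgeR adjusted p = 3.03e-10). Nos2, the inducible nitric oxide synthase, had 2787, 2343 and 2438 CPM in TolDC + LPS and 212, 186 and 193 CPM in TolDC, against 3596, 3028 and 3083 CPM in BMDC + LPS and 73.8, 65.8 and 72.2 CPM in BMDC. Its stimulated level was lower and its unstimulated level higher in TolDC, with a difference of -1.84 ± 0.12 (edgeR adjusted p = 1.56e-07). Il1b, an inflammatory cytokine of the IL-1 family, had 2979, 3201 and 3111 CPM in TolDC + LPS and 153, 150 and 148 CPM in TolDC, against 2941, 3024 and 3079 CPM in BMDC + LPS and 54.3, 57.7 and 59.9 CPM in BMDC. The stimulated groups overlapped and the unstimulated ones did not, with a difference of -1.35 ± 0.059 (edgeR adjusted p = 4.69e-12). Tnf, the cytokine TNF, had 213, 258 and 246 CPM in TolDC + LPS and 46.6, 50.7 and 51.4 CPM in TolDC, against 273, 308 and 302 CPM in BMDC + LPS and 25.9, 28.6 and 29.1 CPM in BMDC, with a difference of -1.13 ± 0.10 (edgeR adjusted p = 8.81e-07).

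The chains of IL-12, the cytokine that drives Th1 responses, were both blunted. Il12a had 28.04, 35.6 and 35.4 CPM in TolDC + LPS and 0.873, 0.939 and 0.951 CPM in TolDC, against 43.4, 49.2 and 46.8 CPM in BMDC + LPS and 0.106, 0.195 and 0 CPM in BMDC. BMDC was at or near the floor of 3 counts per library, with 9 reads over the group, so the rise of 8.68 there is imprecise, and the difference was -3.52 ± 0.47 (edgeR adjusted p = 2.46e-05). Il12b had 8.94, 8.64 and 8.596 CPM in TolDC + LPS and 0.198, 0.0816 and 0.106 CPM in TolDC, against 205, 169 and 182 CPM in BMDC + LPS and 0.917, 0.875 and 0.818 CPM in BMDC. Its stimulated level was far lower in TolDC + LPS than in BMDC + LPS, yet so was its unstimulated level, with 10 reads in the TolDC group. The difference of -1.68 ± 0.53 (edgeR adjusted p = 0.0149) was no longer called without TolDC library 1 (-1.26, adjusted p = 0.192) or without the 4 libraries numbered 1 (-1.24, adjusted p = 0.198). Il6 rose by 6.18 in TolDC and 6.57 in BMDC and missed the threshold for a difference (-0.39 ± 0.25, edgeR adjusted p = 0.239). It passed in 2 alternative settings, among them without TolDC library 1, at -0.65 (adjusted p = 0.000228).

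Of 31 tested inflammatory cytokines and effectors, the difference was called for 17 (54.8%, near the 44.4% over all genes), more positive in TolDC for 4 and more negative for 13. Their median difference was -0.47, beside -0.0095 over all genes. Blunted rises made up 12 of the 17, among them Il1a at -1.27 and Il15 at -1.12. Prostaglandin E synthase, Ptges, which acts downstream of cyclooxygenase, went the other way. It had 239, 221 and 225 CPM in TolDC + LPS and 5.79, 7.22 and 7.19 CPM in TolDC, against 34.6, 45.2 and 44.4 CPM in BMDC + LPS and 4.13, 3.69 and 3.79 CPM in BMDC, and its rise was 5.08 in TolDC and 3.41 in BMDC (difference 1.67 ± 0.18, edgeR adjusted p = 1.02e-05). Lcn2, an iron-binding defence protein, also had the larger rise in TolDC (2.34, edgeR adjusted p = 0.0327). Its level in library 1 was the lowest of every group, and the call was lost in 7 of the 12 fits without 1 library, with an adjusted p of up to 0.0759. These were the fits without BMDC libraries 2 or 3, without any 1 of the BMDC + LPS libraries, and without TolDC + LPS libraries 2 or 3. With libraries 2 and 3 of each group summed the adjusted p was 0.217.

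Other leading blunted rises were of several kinds. Btla, an inhibitory receptor of lymphocytes and dendritic cells, had 63.3, 54.2 and 54.5 CPM in TolDC + LPS and 71.6, 68.2 and 68.2 CPM in TolDC, against 9.29, 7.92 and 7.73 CPM in BMDC + LPS and 0.353, 0.583 and 1.51 CPM in BMDC. Its fall in TolDC (-0.28) just missed the threshold (edgeR adjusted p = 0.0572), and its level there was high before and after LPS. The difference was -3.72 ± 0.31 (edgeR adjusted p = 4.48e-06). Amelx, known from tooth enamel, had 2.55, 1.68 and 1.36 CPM in TolDC + LPS and 1.03, 0.9796 and 1.09 CPM in TolDC, against 113, 86.1 and 90.4 CPM in BMDC + LPS and 3.56, 2.85 and 2.71 CPM in BMDC, and the difference was -4.17 ± 0.43 (edgeR adjusted p = 1.4e-05). The gene lies within Arhgap6 on the opposite strand, and Arhgap6 itself was reversed, at -2.12. Slc1a2, a glutamate transporter, had 13.3, 14.3 and 14.1 CPM in TolDC + LPS and 6.35, 4.57 and 5.88 CPM in TolDC, against 6.83, 7.05 and 7.19 CPM in BMDC + LPS and 0.565, 0.389 and 0.473 CPM in BMDC. TolDC + LPS was the highest group although the log2 rise was smaller (-2.57). M1ap, a gene of meiosis, differed by -2.83.

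Of 24 tested genes of co-stimulation and maturation, 19 were called (79.2%, beside 44.4% over all genes), 5 more positive and 14 more negative in TolDC. Of the 14, 9 were blunted rises, and the median difference of the list was -0.44. Cd86, a ligand of CD28, had 20.2, 20.3 and 20.98 CPM in TolDC + LPS and 15.3, 14.6 and 15.1 CPM in TolDC, against 131, 129.5 and 136 CPM in BMDC + LPS and 34.5, 37.6 and 35.8 CPM in BMDC. All TolDC libraries, stimulated or not, lay below all BMDC libraries, and the difference was -1.43 ± 0.066 (edgeR adjusted p = 9.28e-12). Cd80, the other ligand of CD28, had 125, 118 and 117 CPM in TolDC + LPS and 89.6, 85.2 and 84.01 CPM in TolDC, against 311, 281 and 285 CPM in BMDC + LPS and 96.5, 95.6 and 92.2 CPM in BMDC. Unstimulated levels were close, and after LPS the groups were far apart, with a difference of -1.15 ± 0.063 (edgeR adjusted p = 1.05e-10). Cd40, which receives help from T cells, had 85.5, 78.3 and 80.3 CPM in TolDC + LPS and 1.94, 2.65 and 2.43 CPM in TolDC, against 445, 394 and 407 CPM in BMDC + LPS and 9.28, 8.297 and 8.44 CPM in BMDC. Its log2 responses were nearly equal, at 5.12 in TolDC and 5.58 in BMDC (difference -0.47 ± 0.13, edgeR adjusted p = 0.00612), and the lower stimulated level went with a lower start. Tnfsf4, the ligand OX40L, was reversed (-1.44 ± 0.10), and Tnfsf9, the ligand 4-1BBL, was blunted (-1.75 ± 0.16). Cd274, the inhibitory ligand PD-L1, differed by -0.29 ± 0.049 and its stimulated levels overlapped. Ccr7, the receptor that guides dendritic cells to lymph nodes, rose by 1.94 in TolDC and 1.74 in BMDC, and the difference missed the threshold (0.20 ± 0.10, edgeR adjusted p = 0.132). It passed in 2 alternative settings, among them without BMDC library 1, at 0.27 (adjusted p = 0.0332).

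Antiviral genes induced by interferon were called in 1 direction. Of 48 tested, 33 were called (68.8%, beside 44.4% over all genes). All 33 were more negative, as 31 blunted rises and 2 amplified falls. The median log2 change was 1.00 in TolDC and 1.55 in BMDC, with a median difference of -0.59. Over the alternative settings between 27 and 39 were called more negative and at most 3 more positive. Irf7, the transcription factor that sustains interferon production, had 115, 139 and 133 CPM in TolDC + LPS and 19.7, 25.6 and 23.9 CPM in TolDC, against 211, 285 and 270 CPM in BMDC + LPS and 4.798, 11.3 and 10.7 CPM in BMDC. Unstimulated TolDC lay above BMDC, the order was the opposite after LPS, and the difference was -2.35 ± 0.35 (edgeR adjusted p = 0.000707). Ifit2, an antiviral protein that binds RNA, had 10.8, 17.8 and 16.2 CPM in TolDC + LPS and 9.84, 9.43 and 10.01 CPM in TolDC, against 70.6, 92.7 and 91.7 CPM in BMDC + LPS and 16.2, 17.3 and 16.4 CPM in BMDC, and the difference was -1.73 ± 0.26 (edgeR adjusted p = 0.000492). Rsad2, the antiviral enzyme viperin, had 106, 122 and 120.1 CPM in TolDC + LPS and 5.35, 6.29 and 5.92 CPM in TolDC, against 349.7, 414 and 389 CPM in BMDC + LPS and 12.2, 12.1 and 12.2 CPM in BMDC. It rose strongly in both and differed by -0.67 ± 0.12 (edgeR adjusted p = 0.000177).

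Interferon beta itself, Ifnb1, was near the limit of detection. It had 0.424, 0.202 and 0.396 CPM in TolDC + LPS and 0, 0 and 0 CPM in TolDC, against 0.211, 0.369 and 0.225 CPM in BMDC + LPS and 0, 0 and 0 CPM in BMDC, with 35 reads over TolDC + LPS and 19 over BMDC + LPS. The stimulated groups overlapped, and no fold is given because both unstimulated groups had no reads. In the related list of MHC class I presentation, 12 of 22 genes were called (54.5%, near the 44.4% over all genes), 2 more positive and 10 more negative in TolDC. Nlrc5, the activator of class I genes, had 167, 169.6 and 169 CPM in TolDC + LPS and 164, 154 and 156 CPM in TolDC, against 316, 321 and 308 CPM in BMDC + LPS and 187, 163 and 166 CPM in BMDC, and Psmb9, a subunit of the immunoproteasome, had 118, 127 and 125 CPM in TolDC + LPS and 121, 128 and 129 CPM in TolDC, against 152, 176 and 165 CPM in BMDC + LPS and 99.6, 114 and 114 CPM in BMDC. Neither responded detectably in TolDC, and the differences were -0.78 ± 0.066 and -0.62 ± 0.082.

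**Figure D3:**
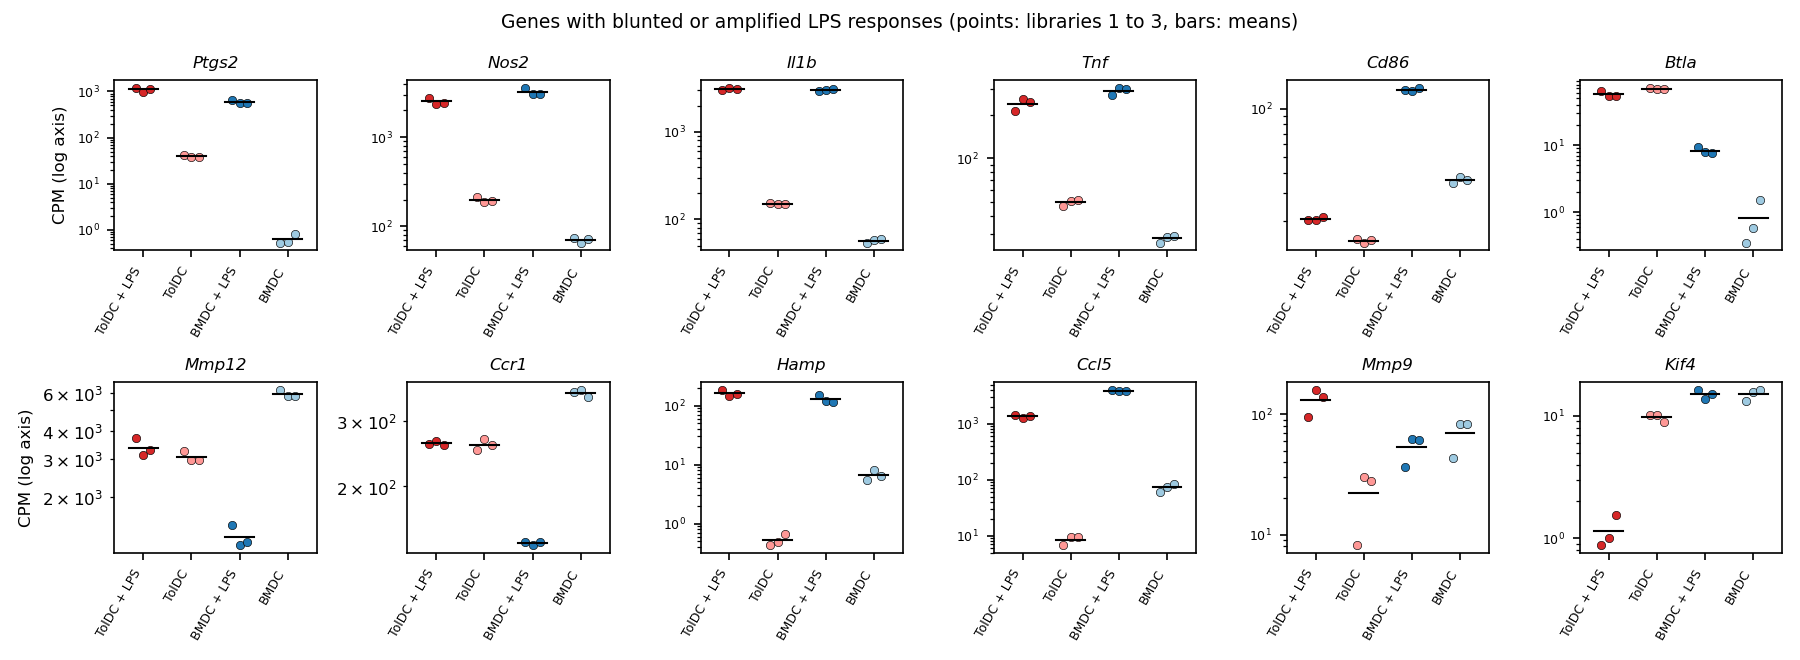
Level in CPM (log axis) of 12 genes with blunted or amplified responses in each of the 12 libraries, with group means as bars. Ptgs2 and Il1b show blunted rises that ended at or above the BMDC + LPS level from a higher start, Cd86 a rise that ended far below it, and Kif4 a fall in TolDC with little change in BMDC.

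Genes that fell with LPS in BMDC and less so in TolDC included genes of macrophages and other myeloid cells. Mmp12, the macrophage elastase (ENSMUSG00000049723, chr9:7344381-7369499, plus strand, protein-coding), had 3715, 3124 and 3268 CPM in TolDC + LPS and 3257, 2953 and 2950 CPM in TolDC, against 1485, 1211 and 1248 CPM in BMDC + LPS and 6170, 5818 and 5766 CPM in BMDC. TolDC did not respond detectably (0.14) and BMDC fell by 2.17, a difference of 2.31 ± 0.12 (edgeR adjusted p = 1.97e-08). Ccr1, a receptor of inflammatory chemokines, had 261, 266 and 258 CPM in TolDC + LPS and 251, 268 and 258 CPM in TolDC, against 142, 139 and 142 CPM in BMDC + LPS and 359, 364 and 348 CPM in BMDC. It was flat in TolDC and fell in BMDC, with a difference of 1.36 ± 0.052 (edgeR adjusted p = 9.24e-13). Trem2, a lipid-sensing receptor of macrophages, had 258, 222 and 233 CPM in TolDC + LPS and 354, 362 and 368 CPM in TolDC, against 47.5, 40.5 and 44.5 CPM in BMDC + LPS and 221, 207 and 224 CPM in BMDC, with a difference of 1.69 ± 0.081 (edgeR adjusted p = 4.16e-11). Itgam, the gene of CD11b, had 231, 277 and 269 CPM in TolDC + LPS and 271, 304 and 300.2 CPM in TolDC, against 116, 147 and 142 CPM in BMDC + LPS and 389, 431 and 419 CPM in BMDC, and only BMDC had a called fall. Arg1, which breaks down arginine, fell by 2.09 in TolDC and 3.04 in BMDC (difference 0.95 ± 0.074).

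Other genes of this class with large differences had lower levels. Qpct, a glutaminyl cyclase, had 1.47, 1.38 and 1.56 CPM in TolDC + LPS and 3.25, 3.55 and 4.12 CPM in TolDC, against 1.94, 1.75 and 1.798 CPM in BMDC + LPS and 22.3, 23.6 and 23.2 CPM in BMDC, and differed by 2.34 ± 0.17 (edgeR adjusted p = 2.91e-09). Rbp4, a carrier of retinol, differed by 2.33 ± 0.30, and Zranb3, a DNA repair factor, by 2.28 ± 0.14. Sirpb1c, a signal-regulatory protein with near-identical relatives and therefore uncertain counts, differed by 2.57 ± 0.48, with 6 reads over BMDC + LPS. Timp2, an inhibitor of metalloproteinases, differed by 2.27 ± 0.59 (edgeR adjusted p = 0.0133), and its call was lost when libraries 2 and 3 of each group were summed (adjusted p = 0.122). Its values in libraries numbered 1 were the lowest of every group.

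Amplified rises included hepcidin. Hamp, which encodes this regulator of iron export (ENSMUSG00000050440, chr7:30942368-30944032, minus strand, protein-coding), had 184, 143 and 159 CPM in TolDC + LPS and 0.436, 0.4898 and 0.669 CPM in TolDC, against 151, 122 and 117 CPM in BMDC + LPS and 5.54, 8.17 and 6.499 CPM in BMDC. The stimulated groups overlapped and the unstimulated level was lower in TolDC, so the log2 rise was 8.22 in TolDC and 4.26 in BMDC, a difference of 3.96 ± 0.40 (edgeR adjusted p = 4.05e-05). Ccl5, a T cell chemokine, had 1458, 1274 and 1350 CPM in TolDC + LPS and 6.86, 9.43 and 9.37 CPM in TolDC, against 4017, 3848 and 3863 CPM in BMDC + LPS and 59.8, 75.4 and 83.6 CPM in BMDC. Its stimulated level was lower in TolDC + LPS despite the larger log2 rise (1.56 ± 0.19, edgeR adjusted p = 0.000125). The same held for Traf1, a signalling adaptor of TNF receptors, which had 256, 257 and 256 CPM in TolDC + LPS and 9.36, 10.9 and 10.5 CPM in TolDC, against 359.9, 367 and 367 CPM in BMDC + LPS and 42.9, 43.9 and 44.3 CPM in BMDC. Abca1, a cholesterol exporter, had 15.4, 18.4 and 18.5 CPM in TolDC + LPS and 0.873, 0.694 and 0.705 CPM in TolDC, against 39.97, 36.6 and 38.1 CPM in BMDC + LPS and 14.3, 11.2 and 10.8 CPM in BMDC, with a difference of 2.86 ± 0.20 (edgeR adjusted p = 3.06e-09). Thus 3 of these 4 genes ended lower in TolDC + LPS than in BMDC + LPS.

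For Thbs1, Sod2 and Sytl3 TolDC + LPS was the highest group. Thbs1, the matrix protein thrombospondin, had 2501, 2708 and 2664 CPM in TolDC + LPS and 234, 297 and 293 CPM in TolDC, against 1864, 1946 and 1927 CPM in BMDC + LPS and 871, 854 and 827 CPM in BMDC, with a difference of 2.09 ± 0.10 (edgeR adjusted p = 1.74e-09). Sod2, the mitochondrial superoxide dismutase, had 1004, 1136 and 1116 CPM in TolDC + LPS and 98.4, 98.1 and 96.8 CPM in TolDC, against 731, 809 and 805 CPM in BMDC + LPS and 131, 132 and 126 CPM in BMDC, with a difference of 0.88 ± 0.069 (edgeR adjusted p = 8.81e-09). Sytl3, a protein of vesicle transport, had 13.2, 14.2 and 13.7 CPM in TolDC + LPS and 0.595, 1.14 and 1.02 CPM in TolDC, against 0.704, 1.24 and 0.809 CPM in BMDC + LPS and 0.212, 0.486 and 0.775 CPM in BMDC. It was low in 3 groups and high in TolDC + LPS alone, with a difference of 2.97 ± 0.45 (edgeR adjusted p = 5.05e-05). Orm1, an acute-phase protein with close relatives, differed by 2.99 ± 0.54 (2.445 to 4.347 over the alternative settings) and had 8 reads over TolDC. Clec4a1, a C-type lectin receptor with close relatives, had 47.3, 68.03 and 64.8 CPM in TolDC + LPS and 5.67, 8.12 and 8.49 CPM in TolDC, against 50.1, 65.02 and 61.6 CPM in BMDC + LPS and 60.1, 61.7 and 60 CPM in BMDC, so that LPS brought TolDC to the level that BMDC held throughout. Counts of Orm1 and Clec4a1 are uncertain for that reason. Ugt1a9, which shares exons with other Ugt1a genes, and Obsl1 rose to a mean of 12.05 and 6.33 CPM in TolDC + LPS and had at most 9 reads in each BMDC group. Their calls were lost without BMDC library 3 (adjusted p = 0.0733 for Ugt1a9 and 0.0604 for Obsl1), and without BMDC library 2 for Ugt1a9 and BMDC library 1 for Obsl1. Saa3, an acute-phase protein, rose by 11.49 in TolDC and 10.71 in BMDC, and its difference missed the threshold (0.78 ± 0.65, edgeR adjusted p = 0.371). It passed only without the 4 libraries numbered 1, at 0.90 (adjusted p = 0.0232), where libraries 2 and 3, close to each other, remain.

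Cell cycle genes were called in all but 1 case. Of 40 tested cell cycle genes, 39 were called (97.5%, beside 44.4% over all genes), 1 more positive and 38 more negative in TolDC. The median log2 change was -2.57 in TolDC and -1.27 in BMDC. Amplified falls made up 34 of the 39. Mcm5, of the replicative helicase, had 8.095, 8.88 and 8.72 CPM in TolDC + LPS and 54.3, 53.3 and 57.7 CPM in TolDC, against 8.901, 14.1 and 12.3 CPM in BMDC + LPS and 23.1, 31.7 and 33.1 CPM in BMDC. Unstimulated TolDC held more than BMDC and stimulated TolDC + LPS less than BMDC + LPS, with a difference of -1.35 ± 0.24 (edgeR adjusted p = 0.00123). Tk1, thymidine kinase, had 0.783, 0.7398 and 0.793 CPM in TolDC + LPS and 7.65, 8.37 and 8.35 CPM in TolDC, against 1.13, 2.86 and 2.43 CPM in BMDC + LPS and 3.88, 5.67 and 6.03 CPM in BMDC, with a difference of -2.07 ± 0.37. Uhrf1, which maintains DNA methylation at replication, was reversed and had 8.03, 9.82 and 9.19 CPM in TolDC + LPS and 31.1, 30.5 and 27.1 CPM in TolDC, against 39.8, 37.2 and 37.5 CPM in BMDC + LPS and 20.3, 23.4 and 22.5 CPM in BMDC. It fell by 1.71 in TolDC and rose by 0.79 in BMDC, a difference of -2.50 ± 0.10 (edgeR adjusted p = 3.06e-12). Ccne1, cyclin E, was reversed as well (-2.04 ± 0.097). Kif4, a mitotic kinesin outside the list, had 0.881, 1.01 and 1.54 CPM in TolDC + LPS and 10.1, 10.2 and 8.95 CPM in TolDC, against 16.2, 13.7 and 15.2 CPM in BMDC + LPS and 13.1, 15.6 and 16.3 CPM in BMDC. BMDC did not respond detectably (0.01), and the difference was -3.06 ± 0.19 (edgeR adjusted p = 9.37e-10). The 1 more positive member was E2f1, a transcription factor of entry into S phase, at 0.30 ± 0.094 (adjusted p = 0.0873 with libraries 2 and 3 of each group summed). In bulk RNA, fewer dividing cells and less RNA per dividing cell cannot be told apart.

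Several receptors and signalling genes fell further in TolDC. Tlr11, a sensor of profilin, had 0.0326, 0.0336 and 0.0743 CPM in TolDC + LPS and 4.76, 4.29 and 3.95 CPM in TolDC, against 4.96, 4.56 and 4.22 CPM in BMDC + LPS and 21.7, 20 and 19.02 CPM in BMDC. TolDC + LPS held 5 reads over the group, and the difference was -4.18 ± 0.32 (edgeR adjusted p = 7.06e-09). Axl, a receptor for dying cells, had 96.2, 83.5 and 84.3 CPM in TolDC + LPS and 931, 858 and 865 CPM in TolDC, against 359.6, 332 and 334 CPM in BMDC + LPS and 1091, 999.8 and 994 CPM in BMDC. All groups were apart, and the difference was -1.74 ± 0.079 (edgeR adjusted p = 1.61e-11). Cxcr2, a chemokine receptor of neutrophils, had 4.700, 9.62 and 9.49 CPM in TolDC + LPS and 195, 194 and 186 CPM in TolDC, against 32.5, 31.3 and 32.1 CPM in BMDC + LPS and 145, 146 and 143 CPM in BMDC, with a difference of -2.40 ± 0.23 (edgeR adjusted p = 3.74e-05). It was the only one of 12 neutrophil markers called in the difference (8.3%, beside 44.4% over all genes). Grap2, Notch4, Pde4c and Fgf2 fell in TolDC and had little expression in BMDC. For example, Pde4c, a phosphodiesterase that breaks down cyclic AMP, had 3.95, 3.36 and 3.49 CPM in TolDC + LPS and 30.1, 26.7 and 26.5 CPM in TolDC, against 0.352, 0.415 and 0.674 CPM in BMDC + LPS and 0.635, 0.454 and 0.775 CPM in BMDC, with a difference of -2.58 ± 0.33. Differences were -3.93 ± 0.61 for Grap2, an adaptor of T cell receptor signalling, -3.00 ± 0.58 for the receptor Notch4 and -2.48 ± 0.46 for the growth factor Fgf2.

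Vitamin D genes went both ways. Of 18 tested, 4 were called more positive and 5 more negative in TolDC, together 50%, near the 44.4% over all genes. Vdr, the vitamin D receptor, had 284, 238 and 248 CPM in TolDC + LPS and 546, 502 and 501 CPM in TolDC, against 305, 265 and 275 CPM in BMDC + LPS and 346, 311 and 315 CPM in BMDC, with an amplified fall (-0.80 ± 0.098, edgeR adjusted p = 1.28e-05). Cyp24a1, the enzyme that degrades vitamin D and a direct target of its receptor, had 626, 533 and 559 CPM in TolDC + LPS and 1820, 1708 and 1743 CPM in TolDC, against 0, 0 and 0 CPM in BMDC + LPS and 0, 0.0324 and 13.1 CPM in BMDC. It was listed at 0 in all 3 BMDC + LPS libraries, so no fold and no difference is given, and BMDC was uneven.

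Lysosomal genes were mostly more positive in TolDC. Of 30 tested, 27 were called, a share well above the 44.4% over all genes. All 27 were more positive, as 10 blunted falls, 8 amplified rises and 9 reversed genes. The median log2 change was 0.25 in TolDC and -0.36 in BMDC. Over the alternative settings 24 to 28 were more positive and at most 2 more negative. Ctsk, the collagen-degrading cathepsin K, had 12.6, 15.4 and 14 CPM in TolDC + LPS and 7.65, 8.12 and 8.63 CPM in TolDC, against 32.02, 29.4 and 29.8 CPM in BMDC + LPS and 108, 99.9 and 100.5 CPM in BMDC. It rose by 0.78 in TolDC and fell by 1.76 in BMDC, a difference of 2.53 ± 0.097 (edgeR adjusted p = 9.24e-13). Gpnmb, a membrane glycoprotein of lysosome-rich macrophages, had 4703, 4028 and 4205 CPM in TolDC + LPS and 2481, 2302 and 2245 CPM in TolDC, against 516, 455 and 474 CPM in BMDC + LPS and 738, 667 and 684 CPM in BMDC. Its TolDC groups were both higher, and LPS widened the gap (1.41 ± 0.088, edgeR adjusted p = 3.66e-09). Ctsd, the protease cathepsin D, had 3152, 3037 and 3087 CPM in TolDC + LPS and 2001, 2026 and 2032 CPM in TolDC, against 1870, 1966 and 1945 CPM in BMDC + LPS and 2155, 2160 and 2231 CPM in BMDC, with a difference of 0.79 ± 0.049 (edgeR adjusted p = 5.02e-10). Ctsb, cathepsin B, differed by 0.77 ± 0.066.

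Genes of tissue remodelling leaned the same way. Of 30 tested, 16 were called more positive and 5 more negative in TolDC, with a median difference of 0.49. Together 70.0% were called, beside 44.4% over all genes. Besides Mmp13, Mmp8, Mmp12, Thbs1 and Timp2, Mmp9, a gelatinase, had 95.7, 159.6 and 139 CPM in TolDC + LPS and 8.21, 30.2 and 28.2 CPM in TolDC, against 36.5, 62.6 and 61.7 CPM in BMDC + LPS and 43.3, 83.1 and 83.2 CPM in BMDC. It rose in TolDC (2.56) and did not change detectably in BMDC (-0.39), with a difference of 2.95 ± 0.65 (edgeR adjusted p = 0.00595; 0.0992 with libraries 2 and 3 of each group summed). Library 1 was the lowest of each group. Mmp9 and Mmp8 are also made by neutrophils, whose 12 markers summed to 248 to 611 CPM in TolDC + LPS and 337 to 875 CPM in TolDC, against 396 to 1713 CPM in BMDC + LPS and 779 to 2757 CPM in BMDC. The part of these cells in the result was not tested.

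Marker genes of macrophages and of dendritic cells were called in both directions. Of 12 macrophage and monocyte markers, 6 were called more positive and 1 more negative in TolDC (58.3%, beside 44.4% over all genes). Lyz2, lysozyme, had 499, 717 and 662 CPM in TolDC + LPS and 1529, 1556 and 1540 CPM in TolDC, against 335, 542 and 513 CPM in BMDC + LPS and 4338, 4276 and 4227 CPM in BMDC, and its fall was 1.30 in TolDC and 3.21 in BMDC, a difference of 1.91 ± 0.26 (edgeR adjusted p = 0.000408). Csf1r, the receptor for M-CSF, had 339.5, 426 and 402 CPM in TolDC + LPS and 314, 306 and 305 CPM in TolDC, against 141, 195 and 186 CPM in BMDC + LPS and 248, 239 and 247 CPM in BMDC, rising in TolDC and falling in BMDC (0.83 ± 0.16, edgeR adjusted p = 0.00259). Fcgr1, the high-affinity IgG receptor, differed by 1.78 ± 0.19. The negative one was Adgre1, the gene of F4/80, at -0.79 ± 0.26 (edgeR adjusted p = 0.0349), whose call was lost in 13 of 23 alternative settings.

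Of 10 general dendritic cell markers, 1 was called more positive and 5 more negative, with a median difference of -0.15. The more positive one, which rose in TolDC and fell in BMDC, is not shown, and the called genes named next were all more negative. Markers of conventional dendritic cells 1 had 1 more positive and 2 more negative of 6 tested. Those of conventional dendritic cells 2 had 3 and 1 of 6, and those of plasmacytoid dendritic cells 0 and 2 of 5. The share called lay below the 44.4% over all genes for plasmacytoid markers and above it for the other dendritic cell lists. These lists are short. Kmo, an enzyme of tryptophan breakdown, had 1.83, 1.51 and 1.19 CPM in TolDC + LPS and 15.6, 16.6 and 14.98 CPM in TolDC, against 25.9, 26.3 and 28.7 CPM in BMDC + LPS and 61, 60.5 and 57.7 CPM in BMDC, with a difference of -2.25 ± 0.13 (edgeR adjusted p = 1.41e-10). Zbtb46, a transcription factor of conventional dendritic cells, had 17.9, 14.7 and 16.6 CPM in TolDC + LPS and 18.6, 17.4 and 14.5 CPM in TolDC, against 69.2, 60.4 and 62.8 CPM in BMDC + LPS and 33.7, 32.7 and 29.4 CPM in BMDC. It rose in BMDC and did not respond detectably in TolDC, with a difference of -1.03 ± 0.13 (edgeR adjusted p = 1.28e-05). Ciita, the activator of MHC class II genes, was reversed (-1.08 ± 0.094). Flt3, a growth factor receptor, was low in all groups (10 reads over TolDC + LPS and 18 over TolDC). Its difference of -1.98 lost its call in 4 alternative settings. Among them were the fits without TolDC library 1 (adjusted p = 0.0903) and without TolDC + LPS library 1 or 3. Itgax had 1501, 1292 and 1342 CPM in TolDC + LPS and 2235, 2024 and 2013 CPM in TolDC, against 1537, 1250 and 1285 CPM in BMDC + LPS and 2253, 1981 and 1997 CPM in BMDC, and its difference of 0.01 ± 0.12 was close to 0. The summed macrophage markers were 1902 to 2582 CPM in TolDC + LPS and 2505 to 2571 CPM in TolDC, against 1306 to 1985 CPM in BMDC + LPS and 6292 to 6477 CPM in BMDC. The part of cell composition in the gene responses was not tested.

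Genes of antigen presentation by MHC class II had no single direction, with 53.8% called, near the 44.4% over all genes. Of 13 genes, 4 were called more positive and 3 more negative in TolDC, and H2-Aa, H2-Ab1 and H2-Eb1 were not called, with differences of 0.01, 0.07 and 0.07. Among 28 phagocytic and scavenger receptors (82.1% called), 14 were more positive, led by Fcgr1, Trem2 and Msr1, and 9 more negative, led by Axl. The 14 metabolic enzymes linked to tolerance (71.4% called) divided into 7 more positive, including Aldh1a2 and Arg1, and 3 more negative, including Nos2.

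Genes of the endoplasmic reticulum stress response were mostly more positive in TolDC. Of 25 tested, 17 were called more positive and 1 more negative (72.0%, beside 44.4% over all genes). The median log2 change was -0.14 in TolDC and -0.64 in BMDC. Hspa5, the chaperone BiP, had 737, 764 and 738 CPM in TolDC + LPS and 961, 982 and 919.6 CPM in TolDC, against 725, 729 and 738 CPM in BMDC + LPS and 1339, 1336 and 1294 CPM in BMDC, falling less in TolDC (0.50 ± 0.051, edgeR adjusted p = 2.64e-07). Atf4, the transcription factor of the integrated stress response, had 528, 507 and 513 CPM in TolDC + LPS and 242, 262 and 254 CPM in TolDC, against 344, 341 and 346 CPM in BMDC + LPS and 243, 258 and 261 CPM in BMDC, rising more in TolDC (0.60 ± 0.056, edgeR adjusted p = 1.01e-07). Trib3, a target of that factor, differed by 0.76 ± 0.072. The exception was Sesn2, a stress-induced regulator of metabolism, at -0.27 ± 0.059.

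Of 40 nuclear genes of oxidative phosphorylation, 22 were called more positive in TolDC, 20 of them as blunted falls, and 3 more negative, as amplified falls, with a median log2 change of -0.31 in TolDC and -0.46 in BMDC. Over the alternative settings 16 to 25 were more positive. In this list 62.5% were called, beside 44.4% over all genes. Ndufa1, a subunit of the first respiratory complex, had 68.6, 70.2 and 70.9 CPM in TolDC + LPS and 63.1, 66.8 and 63.04 CPM in TolDC, against 48.8, 45.3 and 49.6 CPM in BMDC + LPS and 62.4, 57.8 and 59.2 CPM in BMDC, with a difference of 0.44 ± 0.063 (edgeR adjusted p = 1.72e-05). Of 33 genes of the TCA cycle and fatty acid oxidation, 13 were more positive, led by Idh1 at 0.79 ± 0.057, and 4 more negative. The share called there was 51.5%, near the 44.4% over all genes. Glycolysis and hypoxia genes leaned the other way, with 3 of 26 more positive and 13 more negative (61.5% called). Bnip3, a hypoxia target that acts in mitophagy, had 75.2, 68.7 and 74.7 CPM in TolDC + LPS and 55.05, 49.6 and 53.4 CPM in TolDC, against 53.9, 52.3 and 55.02 CPM in BMDC + LPS and 20.2, 22.3 and 20.9 CPM in BMDC, with a difference of -0.88 ± 0.074 (edgeR adjusted p = 2.29e-08), and Ankrd37, another hypoxia target, was reversed (-1.52 ± 0.11).

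Cholesterol synthesis genes were more positive in TolDC in 12 of 23 cases and more negative in 2 (60.9%, beside 44.4% over all genes). Sqle, which makes squalene epoxide, had 15.2, 15.3 and 14.6 CPM in TolDC + LPS and 10.8, 10.9 and 12.1 CPM in TolDC, against 9.57, 13.04 and 12.1 CPM in BMDC + LPS and 24.1, 22.5 and 23.2 CPM in BMDC. It rose by 0.42 in TolDC and fell by 1.02 in BMDC, a difference of 1.44 ± 0.12 (edgeR adjusted p = 3.41e-08). Mvd, of the mevalonate pathway, was reversed too (0.93 ± 0.077). This count was sensitive to the processing, with 7 to 17 more positive over the alternative settings.

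Lists of signalling genes had no single direction. NF-kB and its regulators, 25 genes, had 8 more positive, led by Traf1, and 7 more negative, led by Zc3h12a, a ribonuclease that limits cytokine transcripts (-0.90 ± 0.062). For the IL-10 receptor, STAT3 and their effectors, 22 genes (54.5% called), there were 6 in each direction, with Stat3 itself at -0.52 ± 0.053. Il10 had 0.294, 0.504 and 0.619 CPM in TolDC + LPS and 0, 0 and 0 CPM in TolDC, against 0.528, 1.11 and 0.764 CPM in BMDC + LPS and 0.0353, 0 and 0 CPM in BMDC. The TolDC group held no reads, so no fold is given and log2 values for Il10 are imprecise. The 27 TLR and pattern recognition genes (55.6% called) had 7 more positive, led by Tlr13 at 1.43 ± 0.12, and 8 more negative. Chemokines, 22 genes (59.1% called), had 6 and 7, with Ccl22, a chemokine for regulatory and helper T cells, at -1.27 ± 0.072. The 18 chemokine receptors had 4 and 6 (55.6% called), led by Ccr1 and Cxcr2, with 2 to 9 and 5 to 6 over the alternative settings. Growth factor and cytokine receptors, 35 genes (71.4% called), had 13 and 12, and 27 genes of oxidative stress (77.8% called) had 13 and 8. Of 40 cytosolic ribosomal protein genes, 10 were called (25%, beside 44.4% over all genes), 1 more positive and 9 more negative. Over the alternative settings these were 0 to 3 and 4 to 17, and Rpl3 was at -0.36 ± 0.059.

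**Figure D4:**
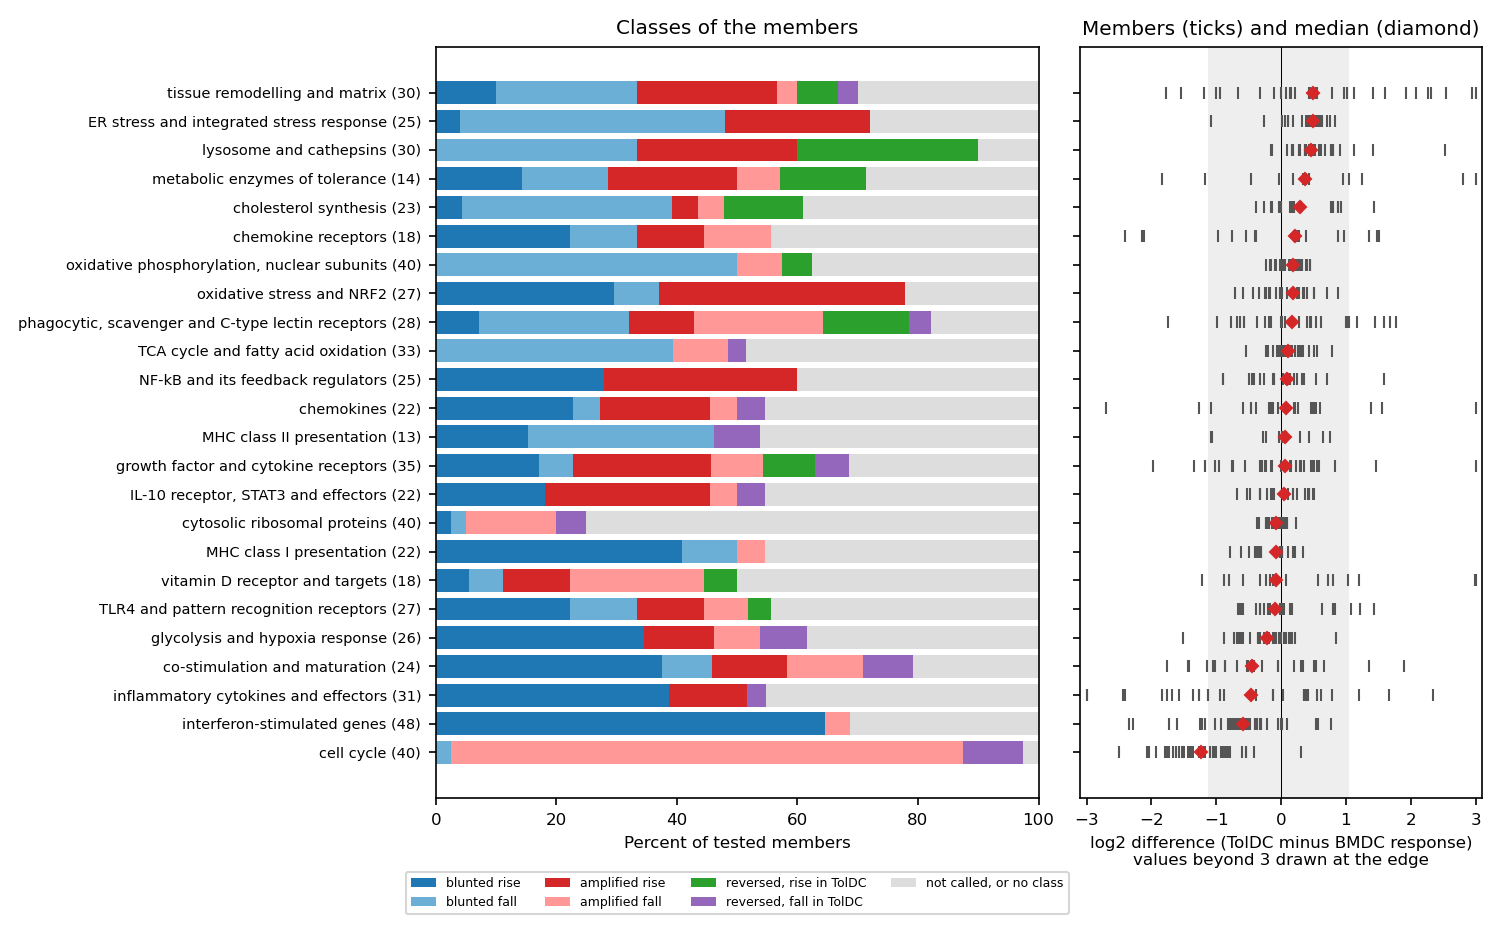
The left panel gives the percentage of tested members of each of 24 gene lists in each class, with the number of members in brackets. The right panel gives the log2 difference of each member (ticks) and the list median (diamonds), over a grey band from the 5th to the 95th percentile of all genes. Interferon-stimulated and cell cycle genes lie mostly left of 0 and lysosomal genes mostly right of it.

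Genes induced by handling were also unequal between responses. Of 9 such genes, 6 were called (66.7%, beside 44.4% over all genes), and all 6 were more negative in TolDC. They comprised 4 blunted rises, 1 reversed gene and 1 amplified fall, that of Egr1. Egr1, an immediate-early transcription factor, had 12.8, 15.8 and 14.8 CPM in TolDC + LPS and 162, 147 and 157 CPM in TolDC, against 11.2, 13.6 and 13.3 CPM in BMDC + LPS and 36.4, 37.8 and 37.5 CPM in BMDC, with a difference of -1.86 ± 0.10 (edgeR adjusted p = 2.07e-10). The 9 genes summed to 1914 to 2011 CPM in TolDC + LPS and 1438 to 1460 CPM in TolDC, against 1371 to 1399 CPM in BMDC + LPS and 633 to 675 CPM in BMDC. These sums were higher with LPS in both cell types, and the part of handling was not tested.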

How the data were processed

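Messenger RNA was measured in 12 libraries of 4 groups (3 each). The authors deposited unnormalized read counts for each gene. Per the submitters' processing notes, reads were trimmed with cutadapt and aligned and counted with STAR on mm10 (GRCm38), and edgeR and limma are also named there. Versions and annotation are not stated in the labels. Of the count columns per table, column 4 was used, whose total was 35.2 to 37.3 times that of the opposite strand (column 3), and column 2 (strand ignored) served as an alternative. Assigned reads were 79.3% to 80.6% of those counted, 9.34% to 9.85% matched several places, 7.10% to 8.01% lay outside genes, 1.04% to 1.18% were ambiguous and 1.52% to 2.11% were unmapped. Reads that match several places are not counted, so levels in near-identical families are uncertain. Of 31054 identifiers, 31011 matched GENCODE M21.

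Genes were filtered with filterByExpr, scaled with TMM (factors 0.945 to 1.04) and fitted in 1 model with a mean per group by edgeR 4.0.16 quasi-likelihood with robust dispersions (R 4.3.3; biological coefficient of variation 0.0572). P-values were adjusted by Benjamini-Hochberg over 13141 genes and called below 0.05. SEs were derived from the quasi-likelihood F. CPM in the text use TMM-scaled totals, except sums over markers, which use assigned reads. Blunted genes were called in the difference and in BMDC, with a smaller absolute change in TolDC of the same sign or not called. Amplified genes were called in the difference and in TolDC, with a smaller absolute change in BMDC of the same sign or not called. Reversed genes were called in all 3 contrasts with opposite signs. Both responses enter the difference, so classes are descriptions of the same fit.

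The groups, lists and members were chosen with earlier results of these data known, so list counts are no independent support; no set test was run. Named genes were the 6 largest differences per class (at least 2-fold, 5 CPM in the highest group and over 3 counts in every group), the 2 largest called members per list, and 17 genes of general interest. Chosen after their values were seen were Rsad2, Ifit2, Lcn2, Irf8, Kmo, Zbtb46, Csf1r, Lyz2, Fcgr1, Flt3, Adgre1, Itgax, Itgam, Trem2, Msr1, Mcm5, Ccne1, E2f1, Ctsb, Ctsd, Hspa5, Atf4, Sesn2, Thbs1, Ccl22, Il1a, Il15, Egr1, Abca1, Ptges, Ifnb1, Arhgap6, H2-Aa, H2-Ab1 and H2-Eb1. Some results on single genes are not reported here. Promoters came from RefSeq. Alternatives changed the normalization, test, filter, strand, block and libraries (limma-voom with limma 3.58.1, DESeq2 1.42.0). Calculations were tested on simulated counts.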

Additional observations from a re-analysis of the deposited data

Results flagged for a closer look

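The responses to LPS differed between TolDC and BMDC, by the interaction test itself (edgeR, adjusted p below 0.05), for 5834 genes, and 632 of them were reversed. Among the reversed genes with the largest differences, the log2 difference was 5.56 for Mmp13, 4.39 for Aldh1a2, 3.72 for Slc28a3, 2.87 for Adgrl2, 2.55 for Ch25h and 2.54 for Mmp8, all higher with LPS in TolDC and lower with LPS in BMDC. In the other direction it was -4.59 for Igsf9, -4.18 for Igfbp4, -2.75 for Ly6a, -2.71 for Cx3cl1, -2.70 for Epha2 and -2.69 for St3gal5.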

How the results depend on the processing

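Counts held within 1.5 times under the alternatives, apart from the rule of at least a 1.5-fold difference, which left 2260 called genes, 1025 blunted, 852 amplified and 365 reversed. Fits without 1 library gave 5244 to 5782 called genes, 2416 to 2680 more positive and 2828 to 3102 more negative in TolDC, 1044 to 1090 with at least 2-fold, 2663 to 2898 blunted, 1985 to 2218 amplified and 542 to 643 reversed. They gave 8862 to 9575 genes for LPS in TolDC, 9221 to 9709 for LPS in BMDC, and 385 to 417 called list members. DESeq2 called 5313, limma-voom 5867, no filter 5615 and column 2 counts 5873, in which 1 shared call had the opposite sign. Upper-quartile factors called 6022, 55.7% of them more positive, against 46.0% with TMM. With libraries 2 and 3 of each group summed, an alternative chosen after seeing the data, 4418 genes were called, including 75.4% of the calls with all libraries.

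Samples that share a library number are not stated to be paired. After group means were removed, all 18 same-number pairs correlated positively, from 0.091 to 0.466, with 1 below 0.1. Pairs numbered 1 lay at 0.33 to 0.466. With the replicate block, which the main fit leaves out, 6543 genes were called, including 99.8% of the calls without it. Of 128 named genes, 109 kept their direction and side of the threshold in all of up to 23 alternatives. Il10, not called, changed sign with limma-voom (-0.22), without BMDC library 1 (-0.687) and without all libraries numbered 1 (-0.705), within a range of -0.687 to 1.705 without single libraries. Itgax, not called, lay at -0.011 with library totals alone and at -0.047 to 0.113 without single libraries (-0.047 without BMDC library 1, -0.042 and -0.025 without BMDC + LPS libraries 2 and 3, -0.008 and -0.012 without TolDC libraries 2 and 3, -0.046 without TolDC + LPS library 1). The cause was not tested. Genes with few reads in a group have imprecise log2 values at this depth.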
